A study of Mus musculus with 8 samples.

Results

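The lipases and the genes that lipidate very low density lipoprotein (VLDL) were followed in mouse liver RNA as a list of 10 genes. They are *Pnpla2*, *Pnpla3*, *Abhd5*, *Lipe* and *Mgll* of the cytosolic lipid droplet, *Lipa* of the lysosome, the secreted lipases *Lipc* and *Lpl*, and the VLDL assembly genes *Mttp* and *Tm6sf2*. The list was picked by function, with earlier results of these data known, and it holds 10 of the 45706 Ensembl identifiers counted. All 10 passed the filter on low counts, which left 15491 genes to be tested. RNA came from 8 livers of male C56B6/J mice (spelled as in the labels), 4 labelled *Srsf10-kd* (genotype Srsf10KD) and 4 labelled *Ctrl* (genotype WT). At 6 weeks of age each mouse received an AAV2/8 vector that expressed GFP and a mirE/shRNA, directed against *Srsf10* or a control, from the CBA promoter, which is active in many cell types and not in hepatocytes alone. Both groups therefore carried the vector and its GFP cassette, and both were given a high-fat diet (HFD, 60% of calories from fat) from 4 weeks after injection, for 12 weeks. The poly(A) libraries kept strand, and gene counts summed to 50456404 in the shallowest and 59697241 in the deepest liver.

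Levels are given as CPM, a gene's reads per 1e6 reads of its library after scaling by edgeR's TMM factors. Differences are log2 fold changes of *Srsf10-kd* against *Ctrl* from the quasi-likelihood test of edgeR (two-sided), adjusted by Benjamini-Hochberg over all 15491 genes, and a change is called at an adjusted p under 0.05. *Srsf10* itself stood at 34.3, 34.0, 41.0 and 36.5 CPM under the *Srsf10-kd* label and at 31.6, 33.7, 35.3 and 30.9 CPM under the *Ctrl* label. With a log2 fold change of 0.15 (SE 0.10, adjusted p = 0.378), the RNA of the targeted gene was not lower under the *Srsf10-kd* label, and every direction given here is that of the label. SRSF10 protein was not measured in these data. Liver *Srsf10-kd* 3 stood apart from the rest on the first principal component (44.8% of the variance), at -67.4 against -11.5 to -1.92 in the other *Srsf10-kd* livers and 2.91 to 41.8 in the *Ctrl* livers. In the same liver the deviation of log2 CPM from each gene's mean over the 8 livers fell with log2 transcript length, at a slope of -0.19. The slopes were -0.07 to -0.02 in the other *Srsf10-kd* livers and -0.03 to 0.14 in *Ctrl*, where only *Ctrl* 3 was below 0. The length trend thus ran largely along the groups and was not particular to *Srsf10-kd* 3. Values without *Srsf10-kd* 3, and for many genes with the length trend removed, are therefore given for the genes that the results turn on. The labels do not tie each library to a mouse of its own in words, and the p-values measure the spread between these 8 samples.

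Triglyceride in a hepatocyte is stored in lipid droplets and is broken down by lipases that act in sequence. ATGL (*Pnpla2*), activated by CGI-58 (*Abhd5*) and inhibited by the G0S2 protein, removes the first fatty acid. Hormone-sensitive lipase (*Lipe*) acts mainly on diacylglycerol, and monoacylglycerol lipase (*Mgll*) releases the last fatty acid. Adiponutrin (*Pnpla3*) is a relative of ATGL on the droplet surface, known for a human variant associated with fatty liver, while lysosomal acid lipase (*Lipa*) degrades the lipid that reaches the lysosome. Part of the liver's triglyceride leaves the cell on VLDL, for which microsomal triglyceride transfer protein (*Mttp*), paired with protein disulfide isomerase (*P4hb*), loads lipid onto apolipoprotein B (*Apob*), and TM6SF2 is needed for full lipidation of the particle. In the circulation, hepatic lipase (*Lipc*) and lipoprotein lipase (*Lpl*) hydrolyse lipoprotein lipid, and adult hepatocytes make much of the former and little of the latter.

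The sequence next to the transcription start was read for these genes from RefSeq promoter windows of GRCm38.p6 (250 bases before to 50 bases after a start), in which 8 of the 10 genes matched with 11 windows. *Lpl* and *Tm6sf2* had no entry. 4 stretches are shown with annotated untranslated bases of either strand removed. *Lipa* and *Mttp* are shown because their levels followed each other over the livers, and *Lipc* and *Abhd5* because their windows were the ones that held AGGTCA, the half-site bound by many nuclear receptors, which is in capitals on either strand (TGACCT is its reverse complement). The *Mttp* stretch is short because its start lies head to head with the first exons of *Trmt10a*. The stretches lie on GRCm38.p6 at chr19:34527475-34527724 (minus strand, *Lipa*), chr3:138143389-138143447 (minus strand, *Mttp*), chr9:70934809-70935058 (minus strand, the downstream of both *Lipc* starts) and chr9:122351366-122351607 (plus strand, *Abhd5*).
Lipa: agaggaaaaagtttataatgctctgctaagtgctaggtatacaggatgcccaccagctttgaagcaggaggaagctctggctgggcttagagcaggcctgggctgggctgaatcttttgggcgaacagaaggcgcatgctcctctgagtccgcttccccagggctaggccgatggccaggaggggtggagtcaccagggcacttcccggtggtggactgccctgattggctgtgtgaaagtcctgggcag
Mttp: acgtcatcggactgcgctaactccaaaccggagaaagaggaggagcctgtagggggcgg
Lipc: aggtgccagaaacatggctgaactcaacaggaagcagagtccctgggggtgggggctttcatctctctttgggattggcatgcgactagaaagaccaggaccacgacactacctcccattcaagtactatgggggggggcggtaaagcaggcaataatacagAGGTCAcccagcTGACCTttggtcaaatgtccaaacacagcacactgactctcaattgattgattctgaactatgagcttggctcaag
Abhd5: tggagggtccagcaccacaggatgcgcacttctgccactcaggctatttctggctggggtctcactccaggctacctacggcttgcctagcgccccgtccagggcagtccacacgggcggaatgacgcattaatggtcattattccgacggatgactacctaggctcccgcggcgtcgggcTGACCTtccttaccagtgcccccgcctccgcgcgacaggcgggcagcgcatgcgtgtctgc
In the *Lipc* window the half-sites began at -88 and -76 relative to the start, and in the *Abhd5* window at -69. A half-site was present in 2 of the 11 windows and in 16.3% of all 32851 windows. The direct repeat of AGGTCA with 1 base between the copies, the arrangement bound by PPARα with its partner RXR, was in none of the 11 windows and in 0.0396% of all windows. GGGCGG, the GC box bound by Sp factors, was in 9 of the 11 windows and covered all 8 matched genes, against 35.7% of all windows. The E-box CACGTG was found for *Lipe* and *Mgll*, in 2 of the 11 windows, against 7.15% of all windows. Both strands were searched for each motif, the half-site count includes any copy inside a direct repeat, and the letters describe these windows alone.

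None of the 10 genes passed the adjusted threshold, where 11 of the 15491 genes tested (0.0710%) did. DESeq2 and limma-voom with sample quality weights, which called 5.75% and 11.7% of genes, also called none of the 10. At an unadjusted p under 0.05 edgeR gave 2 of the 10, *Lpl* with the higher level and *Mttp* with the lower level in *Srsf10-kd*, which is 20.0% of the list against 21.8% of all genes tested. The livers of both groups did not overlap for 1 of the 10, *Lipe*, or 10% of the list against 14.3% of all genes tested. The log2 fold changes ranged from -0.38 (*Mttp*) to 0.58 (*Pnpla3*), 4 above 0 and 6 below, with a median of -0.02 where the median of all genes tested was 0.01. These RNAs came from whole liver, in which fewer cells of a type and less RNA per cell cannot be told apart.

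**Figure D1:**
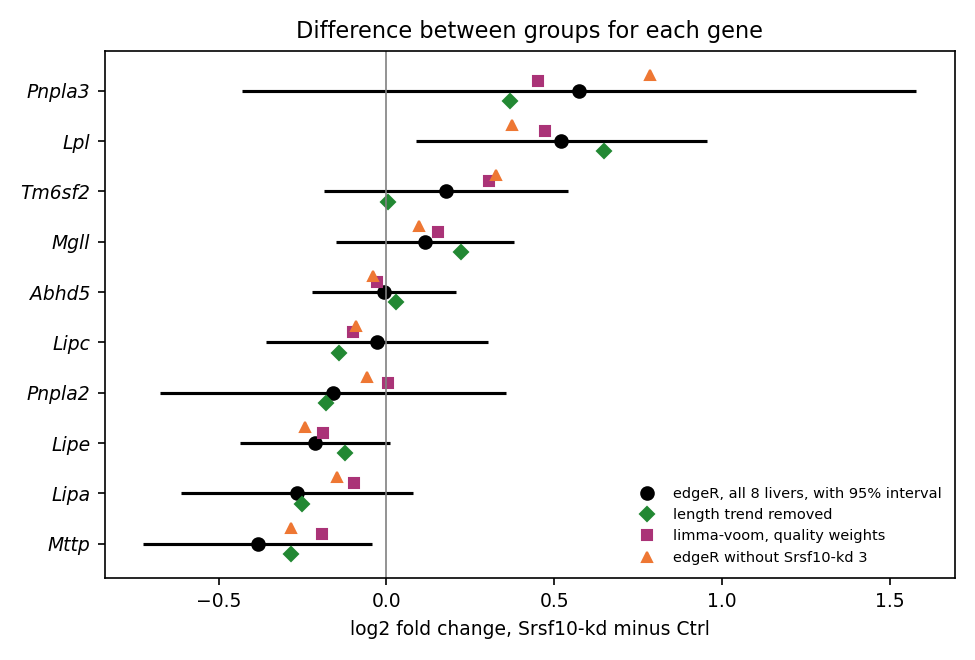
Log2 fold change of each gene between the groups (x axis, *Srsf10-kd* minus *Ctrl*), genes on the y axis. Black points with lines are the edgeR values over all 8 livers with their 95% intervals, and the smaller symbols are the values after removal of the transcript length trend, from limma-voom and without *Srsf10-kd* 3. Of the 10 intervals, those of *Lpl* (0.09 to 0.96) and *Mttp* (-0.72 to -0.04) leave out 0.

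The levels of the genes were compared with each other per kilobase of exon, since longer RNAs give more reads. In the *Ctrl* livers *Mgll* was highest at 110.5 ± 7.11 CPM per kb (SD, n = 4), followed by *Mttp* at 77.0 ± 9.14, *Lipc* at 68.1 ± 11.2, *Lipa* at 40.5 ± 3.83 and *Pnpla2* at 34.3 ± 11.5 CPM per kb. *Tm6sf2* followed at 9.93 ± 0.815 CPM per kb, *Abhd5* at 4.71 ± 0.388, *Lipe* at 3.50 ± 0.263, *Lpl* at 1.31 ± 0.205 and *Pnpla3* at 0.131 ± 0.0273 CPM per kb. Neighbours in this order had ranges over the 4 livers that overlapped for *Mttp* with *Lipc* and for *Lipa* with *Pnpla2*, while the other neighbours were apart. In the *Srsf10-kd* livers the order was the same except that *Lipc* (66.8 CPM per kb) stood above *Mttp* (59.0 CPM per kb), again with overlapping ranges. The exon length counts every annotated exon base, and with the length of the coding transcript instead *Lipa* (92.5 CPM per kb in *Ctrl*) moved above *Lipc* (76.3 CPM per kb), with ranges that overlapped. On that scale *Mttp* (92.5 CPM per kb) stayed above *Lipa* (77.0) and *Lipc* (74.8 CPM per kb) in *Srsf10-kd* too, so the exchange of *Mttp* and *Lipc* depends on the length used. The RNA of the last lipase of the droplet sequence, *Mgll*, was thus more abundant per length than that of the first, *Pnpla2*, and the ATGL activator *Abhd5* was below its enzyme.

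**Figure D2:**
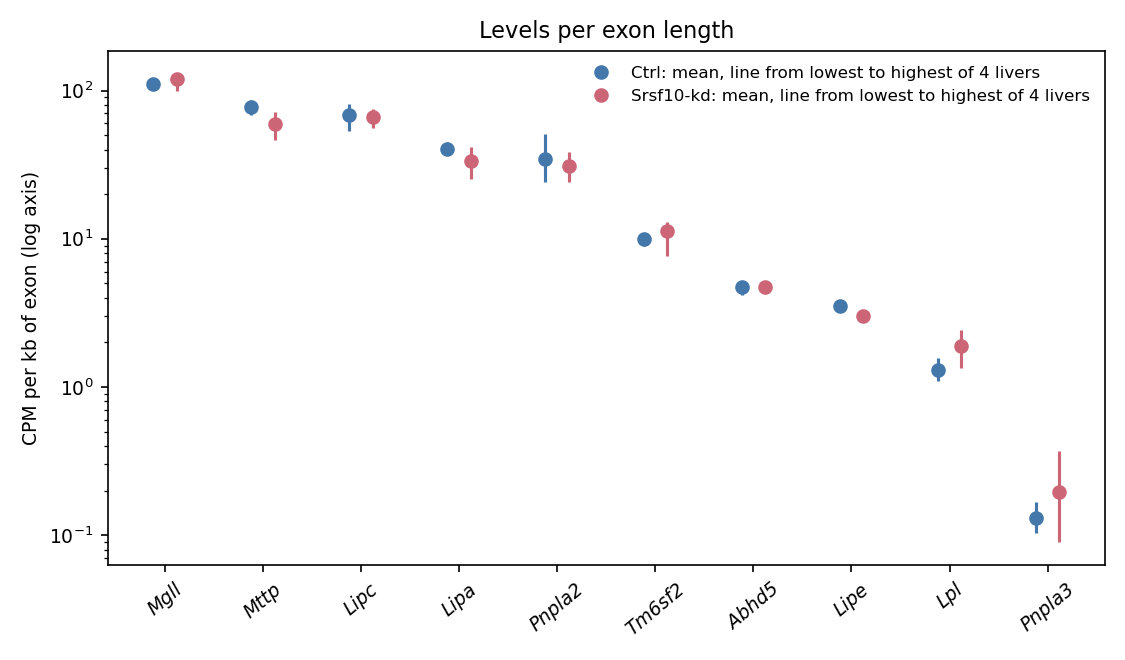
Mean level of each gene per kb of exon (y axis, CPM per kb, log axis) in *Ctrl* and *Srsf10-kd*, with lines from the lowest to the highest of 4 livers and genes ordered by the *Ctrl* mean. Levels run from 110.5 CPM per kb for *Mgll* to 0.131 CPM per kb for *Pnpla3* in *Ctrl*.

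*Pnpla2* (ENSMUSG00000025509, chr7:141455198-141460743, plus strand, 9 exons, GRCm38 in GENCODE M21 as for all genes here) encodes ATGL. It was measured at 99.5, 81.5, 73.2 and 117 CPM in the *Srsf10-kd* livers and at 89.7, 99.3, 72.4 and 153 CPM in the *Ctrl* livers. The groups overlapped, and the *Ctrl* group alone spanned the lowest and the highest of the 8 livers. The means were 92.8 ± 19.5 and 104 ± 34.8 CPM (SD, n = 4 each), with a log2 fold change of -0.16 (95% interval -0.67 to 0.36, adjusted p = 0.688). Its sign rested on *Ctrl* 4, without which the log2 fold change was 0.09, and in limma-voom it was 0.01. This was the widest interval among the genes above 1 CPM.

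*Abhd5* (ENSMUSG00000032540, chr9:122351608-122381524, plus strand, 7 exons) encodes the ATGL activator CGI-58. Its level was 27.2, 26.8, 29.9 and 27.9 CPM in *Srsf10-kd* and 29.6, 27.7, 30.1 and 25.0 CPM in *Ctrl*. The *Srsf10-kd* livers all lay inside the *Ctrl* range, and the log2 fold change of -0.01 (95% interval -0.22 to 0.21, adjusted p = 0.970) had the narrowest interval of the 10 and took a positive sign in 6 of the alternative fits. An antisense gene, A730085K08Rik, overlaps 16.0% of the *Abhd5* exon bases, and since the sources used here do not give the strand setting of the counts, reads of the 2 RNAs cannot be told apart there. *G0s2*, the ATGL inhibitor, was at 369 ± 51.5 CPM in *Srsf10-kd* and 352 ± 57.8 CPM in *Ctrl* (log2 fold change 0.07, adjusted p = 0.801), with a negative sign without *Srsf10-kd* 4 (-0.03), without *Ctrl* 2 (-0.02) and with the length trend removed (-0.21). Enzyme, activator and inhibitor thus all had group means that differed by less than the spread between livers.

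*Pnpla3* (ENSMUSG00000041653, chr15:84167837-84187236, plus strand, 8 exons), the adiponutrin gene, was close to the limit of detection. The reads counted were 8, 18, 8 and 32 in *Srsf10-kd* and 15, 12, 8 and 11 in *Ctrl*, or 0.139 to 0.570 CPM and 0.159 to 0.260 CPM. It had the highest log2 fold change of the 10, at 0.58, but also the largest standard error, 0.45 (95% interval -0.43 to 1.58, adjusted p = 0.445). Without *Srsf10-kd* 4, the liver with 32 reads, the log2 fold change was 0.07. A difference in *Pnpla3* was not detectable at this depth.

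*Lipe* (ENSMUSG00000003123, chr7:25379527-25398710, minus strand, 10 exons), which encodes hormone-sensitive lipase, had the only non-overlapping groups of the list. It was at 16.7, 16.8, 18.9 and 18.6 CPM in *Srsf10-kd* and at 20.2, 19.0, 20.5 and 22.7 CPM in *Ctrl*. The gap was narrow, since the highest *Srsf10-kd* liver (18.9 CPM) lay just under the lowest *Ctrl* liver (19.0 CPM). The groups differed by a log2 fold change of -0.21 (standard error 0.10, 95% interval -0.44 to 0.01), with an adjusted p of 0.243 in edgeR, 0.207 in DESeq2 and 0.145 in limma-voom. Permuting the group labels in all 70 ways (exact, two-sided) gave p = 0.0286, the smallest possible, before any adjustment. With the transcript length trend removed the log2 fold change was -0.12, and without *Srsf10-kd* 3 it was -0.24. The antisense gene 4732471J01Rik overlaps 15.6% of the *Lipe* exon bases.

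*Mgll* (ENSMUSG00000033174, chr6:88724412-88828360, plus strand, 8 exons), the monoacylglycerol lipase gene, was at 635, 507, 631 and 655 CPM in *Srsf10-kd* and at 552, 547, 613 and 531 CPM in *Ctrl*. 3 of the 4 *Srsf10-kd* livers were above every *Ctrl* liver, while *Srsf10-kd* 2 was the lowest of all 8. This gave a log2 fold change of 0.11 (95% interval -0.15 to 0.38, adjusted p = 0.566), and 0.19 without *Srsf10-kd* 2.

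**Figure D3:**
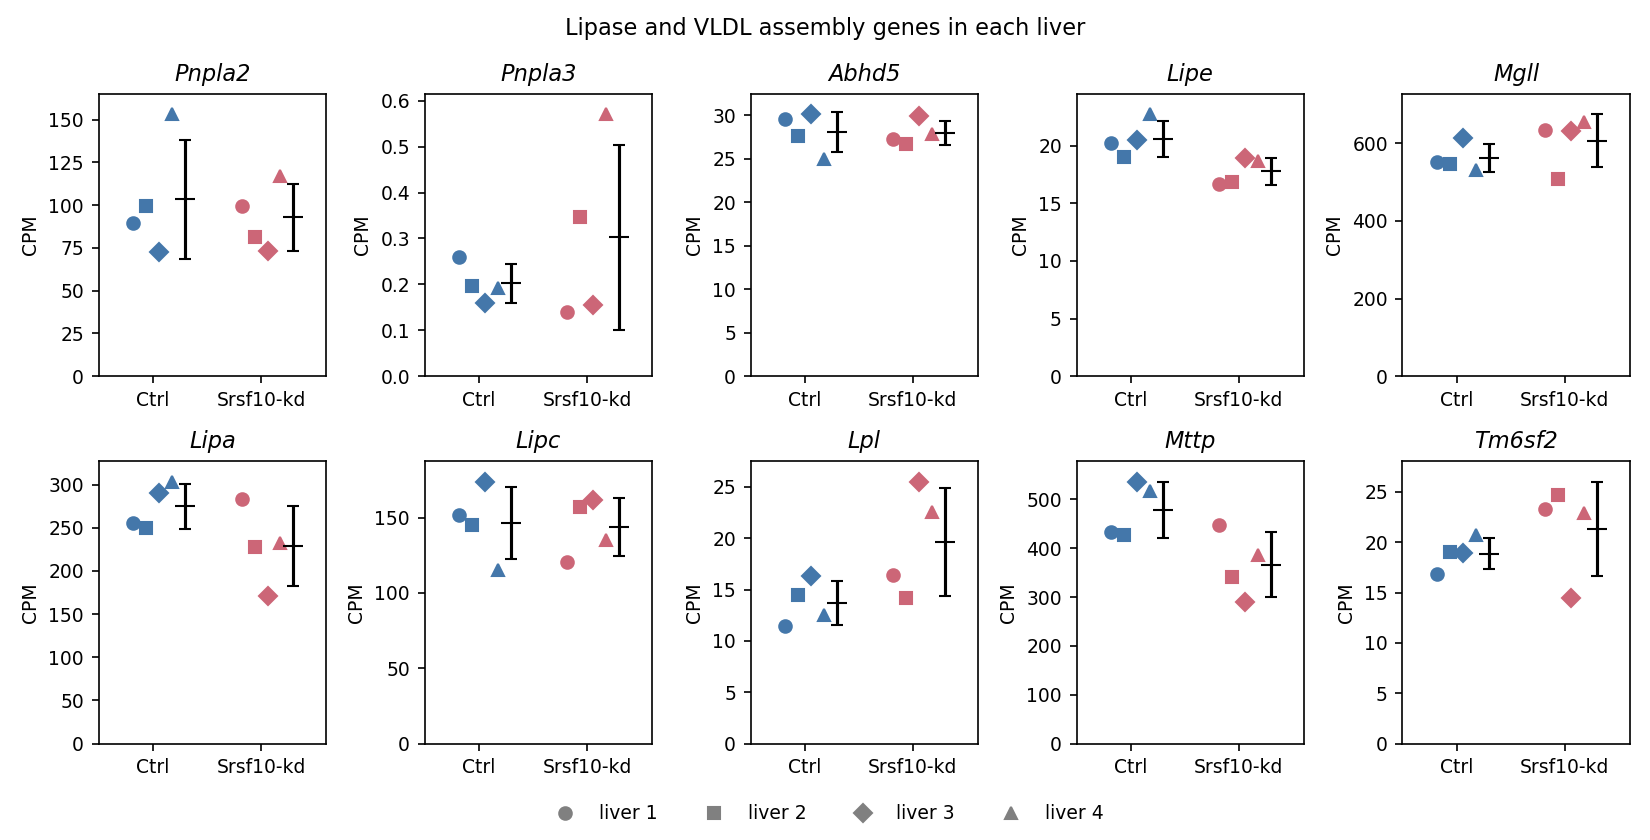
Level of each gene in every liver (y axis, CPM, from 0), *Ctrl* to the left and *Srsf10-kd* to the right of each panel, with 1 symbol per liver number and the mean ± SD of 4 livers as a black bar. *Lipe* is the panel without overlap, and *Srsf10-kd* 3 (diamond) is the lowest of the 8 livers for *Lipa*, *Mttp* and *Tm6sf2* and the highest for *Lpl*.

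*Lipa* (ENSMUSG00000024781, chr19:34492318-34527474, minus strand, 10 exons) encodes lysosomal acid lipase. Its level was 283, 228, 170.4 and 233 CPM in *Srsf10-kd* and 256, 250.0, 290.4 and 303 CPM in *Ctrl*. 3 of the 4 *Srsf10-kd* livers were below every *Ctrl* liver, and *Srsf10-kd* 1 lay inside the *Ctrl* range. Its log2 fold change came to -0.27 (standard error 0.15, 95% interval -0.61 to 0.08, adjusted p = 0.320), -0.15 without *Srsf10-kd* 3 and -0.10 in limma-voom. The proteins that carry the cholesterol released by this enzyme out of the lysosome had values of opposite sign. *Npc2*, the soluble carrier, was at 66.5 ± 10.3 CPM in *Srsf10-kd* and 52.1 ± 3.68 CPM in *Ctrl* without overlap (log2 fold change 0.35, adjusted p = 0.166). *Npc1*, the membrane transporter, was at 85.3 ± 19.9 and 131 ± 42.6 CPM (log2 fold change -0.62, adjusted p = 0.195, and -0.39 without *Ctrl* 4). Neither passed the adjusted threshold.

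*Lipc* (ENSMUSG00000032207, chr9:70798128-70952226, minus strand, 9 exons), which encodes hepatic lipase, was at 121, 157, 162 and 135 CPM in *Srsf10-kd* and at 152, 145, 174 and 115 CPM in *Ctrl*. All *Srsf10-kd* livers lay inside the *Ctrl* range. The means were 144 ± 19.3 and 146 ± 24.0 CPM (SD, n = 4 each), and the log2 fold change of -0.03 (95% interval -0.36 to 0.30, adjusted p = 0.921) took a positive sign in the fits that left out *Srsf10-kd* 1 (0.05), *Srsf10-kd* 4 (0.0009) or *Ctrl* 3 (0.06). *Angptl4*, a secreted inhibitor of the vascular lipases, was at 223 ± 51.0 CPM in *Srsf10-kd* and 238 ± 13.0 CPM in *Ctrl* (log2 fold change -0.09, adjusted p = 0.738), and the sign turned without *Srsf10-kd* 3 (0.04) and in limma-voom (0.07).

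*Lpl* (ENSMUSG00000015568, chr8:68880491-68907448, plus strand, 10 exons), the lipoprotein lipase gene, had the smallest unadjusted p of the 10 in edgeR. It was at 16.4, 14.1, 25.5 and 22.5 CPM in *Srsf10-kd* and at 11.4, 14.4, 16.3 and 12.6 CPM in *Ctrl*. 3 of the 4 *Srsf10-kd* livers were above every *Ctrl* liver, though *Srsf10-kd* 1 only just, and *Srsf10-kd* 2 lay inside the *Ctrl* range. The means were 19.6 ± 5.26 and 13.7 ± 2.15 CPM (SD, n = 4 each), a log2 fold change of 0.52 (standard error 0.19, 95% interval 0.09 to 0.96). The adjusted p was 0.180 in edgeR, 0.114 in DESeq2 and 0.0773 in limma-voom, and the exact permutation test gave p = 0.114. Leaving out *Srsf10-kd* 3 gave a log2 fold change of 0.37, leaving out *Srsf10-kd* 2 gave 0.65, and removing the length trend gave 0.65.

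Adult hepatocytes make little lipoprotein lipase, and adipocytes and macrophages make much, so the markers of these cells were read beside it. Of 8 adipocyte markers 6 were tested and all 6 had a positive log2 fold change, 1 (*Fabp4*, 16.7% against 21.8% of all genes tested) with an unadjusted p under 0.05. None passed the adjusted edgeR threshold, and DESeq2 called *Fabp4* (adjusted p = 0.0407). Their summed level was 29.7, 38.8, 77.3 and 67.7 CPM in *Srsf10-kd* and 40.1, 30.8, 31.3 and 22.2 CPM in *Ctrl*, and the livers with the highest sums (*Srsf10-kd* 3 and 4) were those with the highest *Lpl*. The shared sign did not hold in all fits. Without *Srsf10-kd* 4 the log2 fold change was -0.21 for *Adipoq* and -0.74 for *Plin1*, and without *Srsf10-kd* 3 it was -0.31 for *Cidea*. In limma-voom it was -0.17 for *Cfd* and -0.66 for *Cidea*. *Fabp4*, which endothelial cells and macrophages also express, was at 20.5 to 45.5 CPM in *Srsf10-kd* and 13.7 to 21.7 CPM in *Ctrl*. The adipsin gene *Cfd* was at 0.872, 7.28, 31.5 and 6.34 CPM in *Srsf10-kd* and 0.492 to 11.5 CPM in *Ctrl*, and *Cidea* at 1.12 to 7.43 and 0.825 to 6.06 CPM, both highest in *Srsf10-kd* 3. The defining adipocyte markers *Adipoq* (at most 2.21 CPM) and *Plin1* (at most 1.07 CPM) were low in all livers and highest in *Srsf10-kd* 4. That liver had 124 reads of *Adipoq* and 60 of *Plin1*, where the other livers had at most 30 and 21. *Retn*, which was not tested, had 48 reads there and at most 6 elsewhere. *Srsf10-kd* 3, the liver with the highest *Lpl*, had 0.233 CPM of *Adipoq*. The 12 macrophage and Kupffer cell markers, 6 with positive and 6 with negative log2 fold changes, summed to 343, 242, 340.4 and 218 CPM in *Srsf10-kd* and to 248 to 332 CPM in *Ctrl*. 3 of the 12 (25.0%, against 21.8% of all genes tested) had an unadjusted p under 0.05, all higher in *Srsf10-kd*: *Spp1* (log2 fold change 0.60, no overlap), *Cd9* (0.43) and *Trem2* (0.67), which mark lipid-associated macrophages among other cells. *Gpnmb*, which also marks such macrophages, went the other way with a log2 fold change of -0.20, from at most 22 reads per liver. Negative values were also found for *Csf1r* (-0.29), *Adgre1* (-0.28) and *Cd68* (-0.06). With the length trend removed the log2 fold change was 0.39 for *Spp1*, 0.23 for *Cd9*, 0.40 for *Trem2* and -0.12 for *Gpnmb*. The unadjusted edgeR p was then 0.257 for *Cd9* and 0.164 for *Trem2*, which had 30 to 70 reads per liver. None of the 12 passed the adjusted threshold in edgeR or DESeq2, and limma-voom called *Cd9* (adjusted p = 0.0215). The 5 red and white blood cell markers summed to 208, 177, 574 and 447 CPM in *Srsf10-kd* and to 170.1 to 226 CPM in *Ctrl*, again highest in *Srsf10-kd* 3 and 4. Of the 5, 3 had positive and 2 negative log2 fold changes. The hemoglobin gene *Hbb-bs* gave most of the sum in every liver. It was at 158, 127, 436 and 340 CPM in *Srsf10-kd* and at 130 to 167 CPM in *Ctrl*. White cell markers had log2 fold changes of both signs, with *Cd79a* at 0.55, *Ptprc* at -0.24 and *Cd3e* at -0.26. The part of adipocytes, macrophages and blood cells in the *Lpl* level was not tested.

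*Gpihbp1*, the endothelial anchor of lipoprotein lipase, was at 18.2 ± 4.15 CPM in *Srsf10-kd* and 13.8 ± 1.97 CPM in *Ctrl* (log2 fold change 0.40, unadjusted p = 0.0413, adjusted p = 0.215), and its log2 fold change was 0.24 without *Srsf10-kd* 3 and 0.24 with the length trend removed. *Apoc2*, the apolipoprotein that activates the enzyme, was at 274 ± 34.2 and 222 ± 20.9 CPM (log2 fold change 0.31, adjusted p = 0.198), a value that became -0.03 with the length trend removed. *Lmf1*, which matures the vascular lipases in the endoplasmic reticulum (ER), was at 32.7 ± 2.96 and 33.3 ± 3.79 CPM (log2 fold change -0.02, adjusted p = 0.909), with a sign that turned in 3 of the fits with a liver left out. *Sel1l*, an ER quality-control factor that the maturation of lipoprotein lipase needs, was at 173 ± 9.98 and 227 ± 36.2 CPM without overlap (log2 fold change -0.40, adjusted p = 0.152 in edgeR and 0.0179 in limma-voom), and its log2 fold change was -0.16 with the length trend removed. The direct partners of *Lpl* thus did not share 1 direction, and none passed the adjusted edgeR threshold.

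*Mttp* (ENSMUSG00000028158, chr3:138089854-138144968, minus strand, 18 exons), which encodes the lipid-transferring subunit that starts VLDL assembly, had the lowest log2 fold change of the 10. It was at 447, 342, 289.9 and 387 CPM in *Srsf10-kd* and at 432, 426, 536 and 517 CPM in *Ctrl*. 3 of the 4 *Srsf10-kd* livers were below every *Ctrl* liver, and *Srsf10-kd* 1 lay inside the *Ctrl* range. The means were 366 ± 66.9 and 478 ± 56.7 CPM (SD, n = 4 each), a log2 fold change of -0.38 (standard error 0.15, 95% interval -0.72 to -0.04). The unadjusted p was 0.0314 and the adjusted p was 0.199 in edgeR, 0.147 in DESeq2 and 0.271 in limma-voom, and the exact permutation test gave p = 0.0857. The log2 fold change was -0.28 if *Srsf10-kd* 3 was left out, -0.49 if *Srsf10-kd* 1 was, -0.28 with the length trend removed and -0.19 in limma-voom. Exons of *Trmt10a* and *Gm43691* overlap the gene, and 6.04% of its 75-base stretches are shared with other transcripts.

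*Tm6sf2* (ENSMUSG00000036151, chr8:70072924-70080066, plus strand, 10 exons), a membrane protein gene needed for VLDL lipidation, was at 23.3, 24.7, 14.4 and 22.9 CPM in *Srsf10-kd* and at 16.9, 19.0, 18.9 and 20.7 CPM in *Ctrl*. 3 of the 4 *Srsf10-kd* livers were above every *Ctrl* liver, and *Srsf10-kd* 3 was below every other liver. The log2 fold change was 0.18 (standard error 0.16, 95% interval -0.19 to 0.54, adjusted p = 0.515), 0.33 without *Srsf10-kd* 3 and 0.01 with the length trend removed. In limma-voom it was 0.31 with an unadjusted p of 0.0121, the smallest of the 10 there (adjusted p = 0.0714), and without *Srsf10-kd* 3 the edgeR unadjusted p was 0.00669 (adjusted p = 0.151). *Mttp* and *Tm6sf2*, which act on the same particle, thus had values of opposite sign, and neither passed the adjusted threshold.

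The partners of the MTP protein were read beside *Mttp*. *Apob* (ENSMUSG00000020609), the structural protein of VLDL, was at 5231, 4749, 2659 and 4782 CPM in *Srsf10-kd* and at 7451, 9353, 7254 and 9107 CPM in *Ctrl*. The groups did not overlap, with at most 5231 CPM in *Srsf10-kd* and at least 7254 CPM in *Ctrl*. This gave a log2 fold change of -0.93 (standard error 0.22, 95% interval -1.41 to -0.45), with an adjusted p of 0.115 in edgeR, 0.00293 in DESeq2 and 0.00953 in limma-voom. It was -0.75 without *Srsf10-kd* 3 and -0.56 with the length trend removed. *P4hb*, the other MTP subunit, was at 1421 ± 95.9 and 1564 ± 78.4 CPM (log2 fold change -0.14, adjusted p = 0.455). The log2 ratio of *Mttp* to *Apob* within a liver was -3.55, -3.80, -3.20 and -3.63 in *Srsf10-kd* and -4.11, -4.46, -3.76 and -4.14 in *Ctrl*, a difference of means of 0.57. The exact permutation test of this ratio gave p = 0.0571, and 0.343 after adjustment over 6 ratios of a gene to its partner that were formed after the data were seen. None of the 6 passed the adjusted threshold. The ratios were not formed with the length trend removed, where the log2 fold change was -0.28 for *Mttp* and -0.56 for *Apob*.

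The other genes of both pathways were counted in lists. Of 35 lipase partners (other lipases and esterases, activators, inhibitors, maturation factors and lysosomal partners) 33 were tested, and *Lipf* and *Lipi* had a count of 0 in all 8 livers. 14 of the 33 had positive and 19 negative log2 fold changes, with a median of -0.04. None passed the adjusted edgeR threshold, DESeq2 called none and limma-voom called 1, *Sel1l*. 7 of the 33 (21.2%, against 21.8% of all genes tested) had an unadjusted p under 0.05, 3 with higher and 4 with lower levels in *Srsf10-kd*. Groups did not overlap for 3 of the 33 (9.09%, against 14.3%), namely *Sel1l*, *Npc2* and the lysosomal membrane protein gene *Scarb2*, the last named after its values were seen (222 ± 7.60 against 261 ± 12.4 CPM, log2 fold change -0.23, adjusted p = 0.201, and -0.08 with the length trend removed). Among the 7 with an unadjusted p under 0.05 was *Plin5*, a droplet protein that binds ATGL and CGI-58, at 136 ± 31.3 CPM in *Srsf10-kd* and 196 ± 34.3 CPM in *Ctrl* (log2 fold change -0.53, adjusted p = 0.174).

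All 29 genes of VLDL assembly and secretion (apolipoprotein B, the MTP partner, ER exit, lipidation, uptake receptors and transcription factors of *Mttp*) were tested. 22 of the 29 (75.9%) had negative log2 fold changes, against 48.7% of all genes tested, and the median was -0.14 (-0.18 to -0.12 with a liver left out). None passed the adjusted edgeR threshold, DESeq2 called 1, *Apob*, and limma-voom called 5, among them *Apob*, *Hnf4a* and *Sec24d*. At an unadjusted p under 0.05 there were 7 (24.1%, against 21.8% of all genes tested), all with lower levels in *Srsf10-kd*, and 4 (13.8%, against 14.3%) had groups that did not overlap. These 4 were *Apob* and *Sec24d* and, named after their values were seen, the cargo receptor genes *Mia2* (log2 fold change -0.33, adjusted p = 0.176, and -0.19 with the length trend removed) and *Surf4* (log2 fold change -0.15, adjusted p = 0.333). *Sec24d* and *Sec23a*, coat proteins of the vesicles that leave the ER, were at 85.5 ± 15.3 against 119 ± 15.8 CPM (log2 fold change -0.48, adjusted p = 0.151) and at 118 ± 17.6 against 158 ± 22.7 CPM (log2 fold change -0.43, adjusted p = 0.161, and -0.24 in limma-voom). *Hnf4a*, a hepatocyte transcription factor that activates *Mttp* and *Apob*, was at 564 ± 87.4 and 799 ± 140.0 CPM (log2 fold change -0.50, adjusted p = 0.155, and -0.37 with the length trend removed). The counts and the median of this list with the length trend removed are not reported here. *Ppara*, the nuclear receptor gene whose level the study centres on, was at 83.3 ± 4.45 CPM in *Srsf10-kd* and 197 ± 30.3 CPM in *Ctrl* (log2 fold change -1.24, adjusted p = 0.0166).

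**Figure D4:**
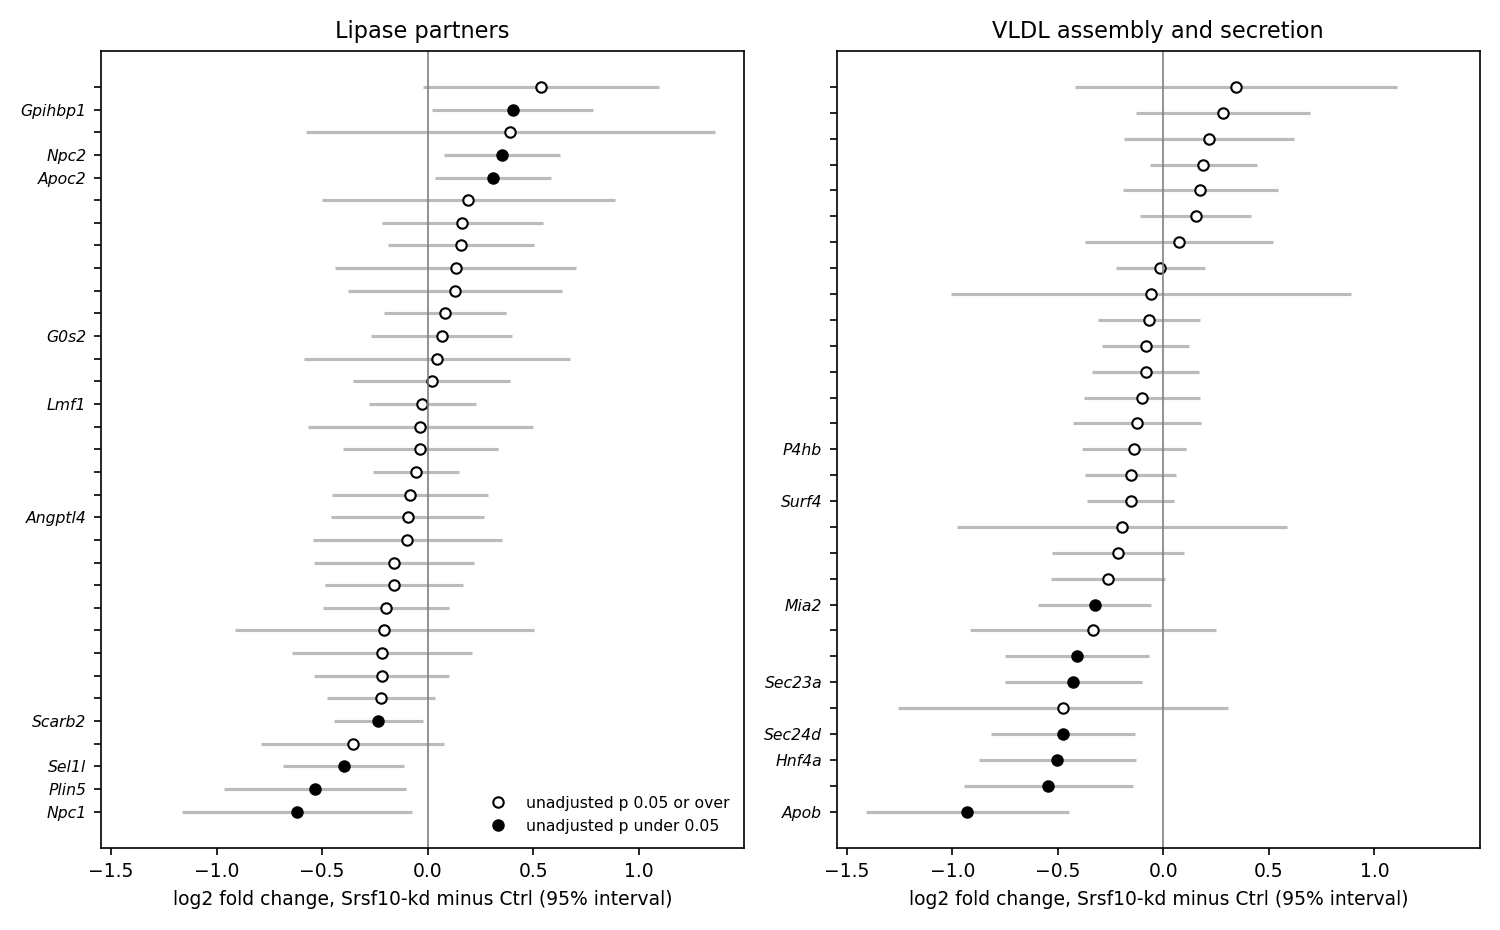
Log2 fold change (x axis, *Srsf10-kd* minus *Ctrl*) with its 95% interval for the 33 lipase partners tested (left) and the 29 genes of VLDL assembly and secretion (right), with names for the genes described in the text, filled where the unadjusted p is under 0.05. The filled points lie on both sides of 0 among the lipase partners and below 0, down to -0.93 for *Apob*, among the VLDL genes.

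The livers were also compared across genes, with log2 CPM over the 8 livers and an exact permutation test of each of the 45 pairs among the 10 genes. *Lipa* and *Mttp* had the strongest relation, with a Pearson's r of 0.956 (p = 7.44e-05, adjusted over the 45 pairs 0.00335) and a Spearman's rho of 0.976 (p = 0.000397, adjusted 0.00893). Without *Ctrl* 4 and *Srsf10-kd* 3, the livers farthest from the median of *Lipa*, r was 0.920, and after subtraction of each group's mean it was 0.953. With the length trend removed r was 0.915, and with scaling by library size alone it was 0.960. Of the 15490 other genes tested, 33 (0.213%) followed *Mttp* at least as closely in either direction. The livers with little of the lysosomal lipase RNA were therefore those with little *Mttp* RNA within the *Srsf10-kd* group as well as within the *Ctrl* group.

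*Pnpla2* and *Lipc* ran in opposite directions, with a Pearson's r of -0.890 (exact permutation p = 0.00263, adjusted 0.0592) and a Spearman's rho of -0.976 (p = 0.000397, adjusted 0.00893). Without *Ctrl* 3 and *Ctrl* 4 r was -0.748, and with the length trend removed it was -0.703. *Ctrl* 4 had the most *Pnpla2* and the least *Lipc*, and *Ctrl* 3 the least *Pnpla2* and the most *Lipc* of the 8 livers. Of the 15490 other genes tested, 133 (0.859%) were related to *Pnpla2* at least as strongly in either direction. In all, 18 of the 45 pairs had a positive r, 5 had an unadjusted p under 0.05, and 1 (Pearson) or 2 (Spearman) passed the adjusted threshold. All pairs share the same 8 libraries.

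**Figure D5:**
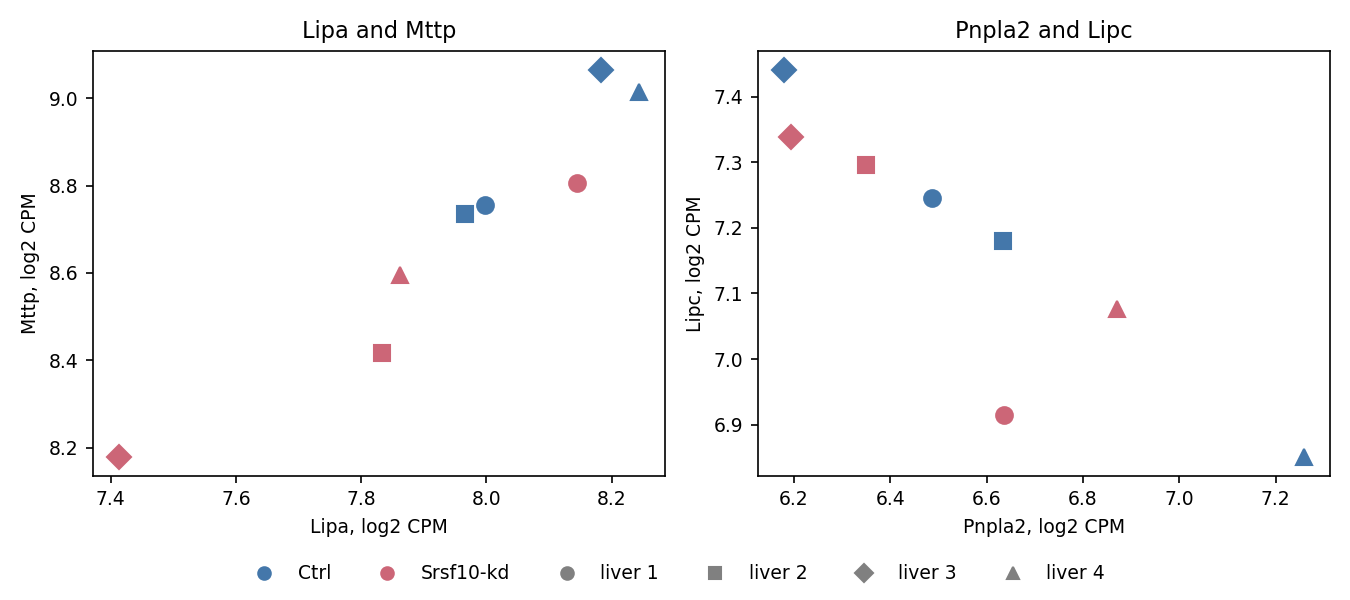
Levels in each liver (log2 CPM on both axes) of *Mttp* against *Lipa* (left) and of *Lipc* against *Pnpla2* (right), with 1 symbol per liver number and colours for the groups. *Mttp* rises with *Lipa* over all 8 livers (r = 0.956), and *Lipc* falls with *Pnpla2* (r = -0.890).

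The genes with patterns most like those of the pair with the smallest unadjusted p in edgeR were listed over the 8 livers as a description. For *Mttp* the closest was *Tmem184c*, with a Pearson correlation of 0.983 in log2 CPM. For *Lpl* the closest were *Dtwd1*, *Psmb2* (a proteasome subunit gene) and *Ttc1*, with correlations of 0.988, 0.983 and 0.980. All 8 livers share their library and depth between the genes, and the highest of 15490 correlations are high by selection.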

How the data were processed

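Poly(A) RNA of 8 livers was sequenced with directional paired-end libraries. The authors aligned the reads with STAR (2.7.7a in the submitters' processing notes) to GRCm38/mm10 and deposited unnormalized read counts for each gene. The annotation release, the strand setting and any filter on reads are not given in the sources used here. Each of the 8 columns was matched to 1 liver by its label. Counts were analysed in R 4.3.3 with edgeR 4.0.16 (TMM, filterByExpr, quasi-likelihood test on group alone, Benjamini-Hochberg over 15491 genes). Per-liver levels are TMM-scaled CPM, with a prior count of 2 on the log2 scale. The exact permutation test over 70 assignments of livers cannot give a p under 0.0286. Correlations were tested over all orders of the 8 livers. Positions and lengths come from GENCODE M21, which holds 45143 of the identifiers. The 10 genes and the lists were chosen with earlier results of these data known. Genes named beside the 10 are, from each pathway list, the 5 with the smallest unadjusted p, direct partners of the 10, *Srsf10* and *Ppara*, and the 3 genes most like the pair with the smallest p, and some genes that meet this rule are not reported here. Alternatives were DESeq2 1.42.0, limma-voom (limma 3.58.1) with sample quality weights, DESeq2 size factors, library size alone, no filter, a minimum of 10 counts in all livers, a block for the replicate number, removal of the lowess trend (span 0.5) on transcript length or GC content, and each liver left out. The correlations between genes, the ratios and the coding transcript length were added after the data were seen. Only the edgeR, DESeq2 and limma-voom fits were tested on simulated data, and the other alternatives were not.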

Additional observations from a re-analysis of the deposited data

Results flagged for a closer look

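Within each group of 4 livers, the distance of the farthest liver to its nearest neighbour was set against the whole range of the group with Dixon's 95% limit. This was done for the 10 genes and *Srsf10*, 22 groups in all, of which 2 were past the limit where chance gives about 1.1. *Mgll* in *Srsf10-kd* 2 was at 507 CPM, far below the 631 to 655 CPM of the other *Srsf10-kd* livers. *Tm6sf2* in *Srsf10-kd* 3 was at 14.4 CPM, below the 22.9 to 24.7 CPM of the other *Srsf10-kd* livers, and this is also the liver that stood apart over all genes.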

How the results depend on the processing

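None of the 10 genes passed the adjusted threshold under any alternative, and the sign of the main value was kept in 158 of 169 fits of a gene under an alternative, the exceptions being *Pnpla2*, *Lipc* and *Abhd5*. The count of all genes called, 11 in edgeR, was 890 in DESeq2, 1814 in limma-voom, 46 with no filter, 59 with the replicate block and 6 with the length trend removed, and 0 to 544 with a liver left out (544 if *Ctrl* 3 and 64 if *Srsf10-kd* 3 is left out, and 0 if any of *Srsf10-kd* 1, *Srsf10-kd* 2, *Srsf10-kd* 4 or *Ctrl* 2 is). Of the 10 genes, the 2 with an unadjusted p under 0.05 became 3 in DESeq2, with library size alone, the replicate block or the GC trend removed (*Lipe* joining each time), 3 in limma-voom (*Lpl*, *Lipe* and *Tm6sf2*, without *Mttp*), 1 with the length trend removed and 0 to 3 with a liver left out (0 without *Ctrl* 4). For the lipase partners the adjusted count of 0 was 1 in limma-voom and 0 to 1 with a liver left out, and the unadjusted count of 7 was 2 with the length trend removed and 4 to 7 with a liver left out. For the VLDL list the adjusted count of 0 was 1 in DESeq2, 5 in limma-voom and 0 with any liver left out, and the unadjusted count of 7 was 6 to 10 with a liver left out. Same-numbered livers of both groups correlated at -0.18, 0.21, 0.27 and 0.22 in their deviations from the group means, and 5 of 8 livers correlated best with their own number. With 1 of the 4 correlations below 0 and no source that gives the numbers a meaning, they were not taken to pair the livers, although 3 of the 4 are positive. The replicate block changed no adjusted call among the 10 genes. The causes of these shifts were not tested. Depth limits *Pnpla3* most, which was not tested with a minimum of 10 counts in all livers.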

Other observations

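The summed levels of the other marker lists are given as values. The 8 hepatocyte markers summed to 97812 to 115066 CPM in *Srsf10-kd* and to 81312 to 107395 CPM in *Ctrl*. The 5 cholangiocyte markers, of which *Spp1* is also on the macrophage list, all had positive log2 fold changes and summed to 46.5 to 68.6 CPM in *Srsf10-kd* and to 31.4 to 39.1 CPM in *Ctrl*, without overlap, with 3 at an unadjusted p under 0.05 (60.0%, against 21.8% of all genes tested). None of the 5 passed the adjusted threshold in edgeR, while *Krt19* did with an adjusted p of 0.00776 in DESeq2 and 0.00816 in limma-voom. The endothelial markers summed to 186 to 217 CPM in *Srsf10-kd* and 191 to 218 CPM in *Ctrl*. The stellate cell markers summed to 157 to 279 CPM and 178 to 202 CPM. The skeletal muscle markers summed to at most 2.81 and 12.4 CPM.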
